A study of Mus musculus with 5 samples.

Results

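The manchette is a skirt of microtubules that surrounds the nucleus of the elongating spermatid and is taken apart before the sperm is released. It presses on the condensing nucleus and so takes part in shaping the sperm head, and it serves as a track along which motors carry proteins towards the growing tail. Loss of proteins that bind the manchette is known in mice to give misshapen or bent sperm heads and short or malformed tails. The 9 genes Hook1, Hook2, Hook3, Meig1, Rimbp3, Spem1, Iqcg, Lrguk and Ccdc42, whose proteins work at the manchette or belong to a family that does, were chosen by name from the gene symbols of the deposited table. Each of the 9 symbols matched 1 of the 56324 rows, and all 9 passed the filter on low values, a mean of at least 10 over the 5 samples, which left 28370 genes for testing.

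Messenger RNA was sequenced from male germ cells of C57Bl/6 mice that were 12 weeks old. There were 3 samples of spermatids, the haploid cells that build the manchette, and 2 samples of spermatocytes, the meiotic cells that precede them. Both cell types came from the same kind of mice without any other treatment in the labels, and were separated by sedimentation at unit gravity, which sorts cells mainly by size. The labels name no stage within either cell type and give no animal for any sample, so a p-value here reflects the spread among these 5 samples alone, some of which may be technical. All levels below are normalized read counts, for which the authors scaled the gene counts of each library by its size factor. Reads counted in genes came to 52784231 to 84361908 per library.

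The labelled cell types were checked against marker genes. All 10 spermatid markers were higher in spermatids, with a summed level of 584822 to 1664880 in spermatids against 13003 to 17019 in spermatocytes. Of 10 spermatocyte markers 5 were lower in spermatids (Sycp2, Sycp3, Hormad1, Hormad2 and Spo11) and 2 were higher (Syce3 and Mei1), and their summed level was 49567 to 64125 in spermatids against 78950 to 88279 in spermatocytes. Spermatocyte libraries also held more Sertoli cell transcripts, with a summed level of 10 markers of 2080 to 2852 in spermatids against 59648 to 79171 in spermatocytes, and all 10 were lower in spermatids. The 7 Leydig cell markers tested summed to 138 to 346 in spermatids against 2855 to 3401 in spermatocytes. Of 10 markers of muscle-like, vessel, blood and connective tissue cells 6 were higher in spermatids and 1 (Pecam1) lower, with sums of 1594 to 2535 in spermatids against 487 to 542 in spermatocytes. Of 10 spermatogonia markers 9 were tested, 4 were higher in spermatids and 1 lower, and the sums were 1964 to 2658 in spermatids against 1430 to 1680 in spermatocytes. No marker of the spermatid, spermatocyte, Sertoli or Leydig lists was at 0 in any sample. The part of other cells in the results was not tested.

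Upstream sequence is shown for 4 of the genes: Spem1 and Hook1, which had the largest differences between the cell types, Hook2, the relative of Hook1 with a small difference, and Lrguk, which was not called. The sequences are from RefSeq (GRCm38.p6, the assembly of the mm10 coordinates in the deposited table), where 7 of the 9 genes matched, all but Rimbp3 and Hook3. They lie within the 250 bases before the RefSeq start site and stop before the GENCODE start of the gene where that lies further upstream. Each reads 5′ to 3′ on the strand of the gene. Capitals mark matches on either strand to TGACGTCA, the cyclic AMP response element, to its core TGACG, to GTTGCC, part of the X-box bound by RFX factors, to TATAAA and to CCAAT. The core TGACG lies within the full element, so the 2 overlap there.
Spem1 (chr11:69822181-69822415, minus strand): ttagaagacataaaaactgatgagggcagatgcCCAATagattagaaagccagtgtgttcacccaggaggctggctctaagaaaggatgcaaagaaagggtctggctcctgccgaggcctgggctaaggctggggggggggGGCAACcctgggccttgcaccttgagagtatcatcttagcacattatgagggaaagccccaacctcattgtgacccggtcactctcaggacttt
Hook1 (chr4:95967129-95967239, plus strand): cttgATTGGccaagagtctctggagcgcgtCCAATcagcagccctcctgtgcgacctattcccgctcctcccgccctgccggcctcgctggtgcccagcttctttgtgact
Hook2 (chr8:84990373-84990602, plus strand): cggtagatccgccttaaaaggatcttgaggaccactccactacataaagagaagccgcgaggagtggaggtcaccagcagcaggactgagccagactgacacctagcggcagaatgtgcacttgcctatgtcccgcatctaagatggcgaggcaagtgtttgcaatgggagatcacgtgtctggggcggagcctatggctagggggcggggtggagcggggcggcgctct
Lrguk (chr6:34029198-34029447, plus strand): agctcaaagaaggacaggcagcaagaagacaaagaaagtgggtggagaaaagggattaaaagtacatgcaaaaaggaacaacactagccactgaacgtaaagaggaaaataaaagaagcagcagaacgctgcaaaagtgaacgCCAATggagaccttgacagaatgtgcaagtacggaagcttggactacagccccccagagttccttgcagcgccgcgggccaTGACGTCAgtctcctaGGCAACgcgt
Lrguk alone among the 7 genes with a RefSeq entry had the full TGACGTCA, at positions -26 to -19 from the start site, and 1.55% of 32851 windows of the same length held it. GTTGCC was found before Lrguk, Spem1 and Iqcg and in 10.4% of all windows. CCAAT was found before Hook1 at 2 positions, before Lrguk and Spem1 at 1 each and before 1 of the 3 RefSeq starts of Meig1, against 33.8% of all windows. That start of Meig1 also had TGACG, which 17.8% of all windows held. TATAAA matched none of the 7 genes, against 12.4% of all windows, and Hook2 and Ccdc42 matched none of the letters searched. A match here is a description of the letters in the window and nothing more.

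Most of the 9 genes were higher in spermatids, by amounts that ran from 1.39-fold for Hook2 to 59.8-fold for Spem1, or 35.0-fold for Spem1 without spermatid replicate 1. Spem1 and Hook1 rose the most, and Rimbp3 rose 2.23-fold and Ccdc42 1.84-fold, though the call on Ccdc42 ended with equal library totals and after quantile normalization. Meig1 rose 1.44-fold and Hook2 1.39-fold with the deposited values, but both directions turned when the library totals were set equal. Hook3 fell to 0.516 of its spermatocyte level. Iqcg and Lrguk were not called with the deposited values, but were called lower under both of these other scalings. By limma with Benjamini-Hochberg adjustment over all tested genes at 0.05, 6 of the 9 were higher in spermatids and 1 was lower, where 40.6% of all tested genes were higher, 36.5% lower and 77.1% either. For 8 of the 9 genes the samples of one cell type were all on one side of the other, as for 85.8% of all tested genes. Spermatids were the upper ones for 6 of the 9, beside 44.3% of all tested genes. They were the lower ones for 2 of the 9, Hook3 and Lrguk, beside 41.5%. Most genes of these cells differ, so counts of this size describe the 9 genes without setting them apart. With equal totals and with quantile normalization the counts were 3 higher and 3 lower. The median log2 fold change of the 9 genes was 0.52, against 0.07 for all tested genes. It was -0.12 against -0.57 with equal totals, and 0.00 against -0.42 with quantile normalization. In these bulk samples, fewer cells of a type and less RNA per cell cannot be told apart.

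**Figure D1:**
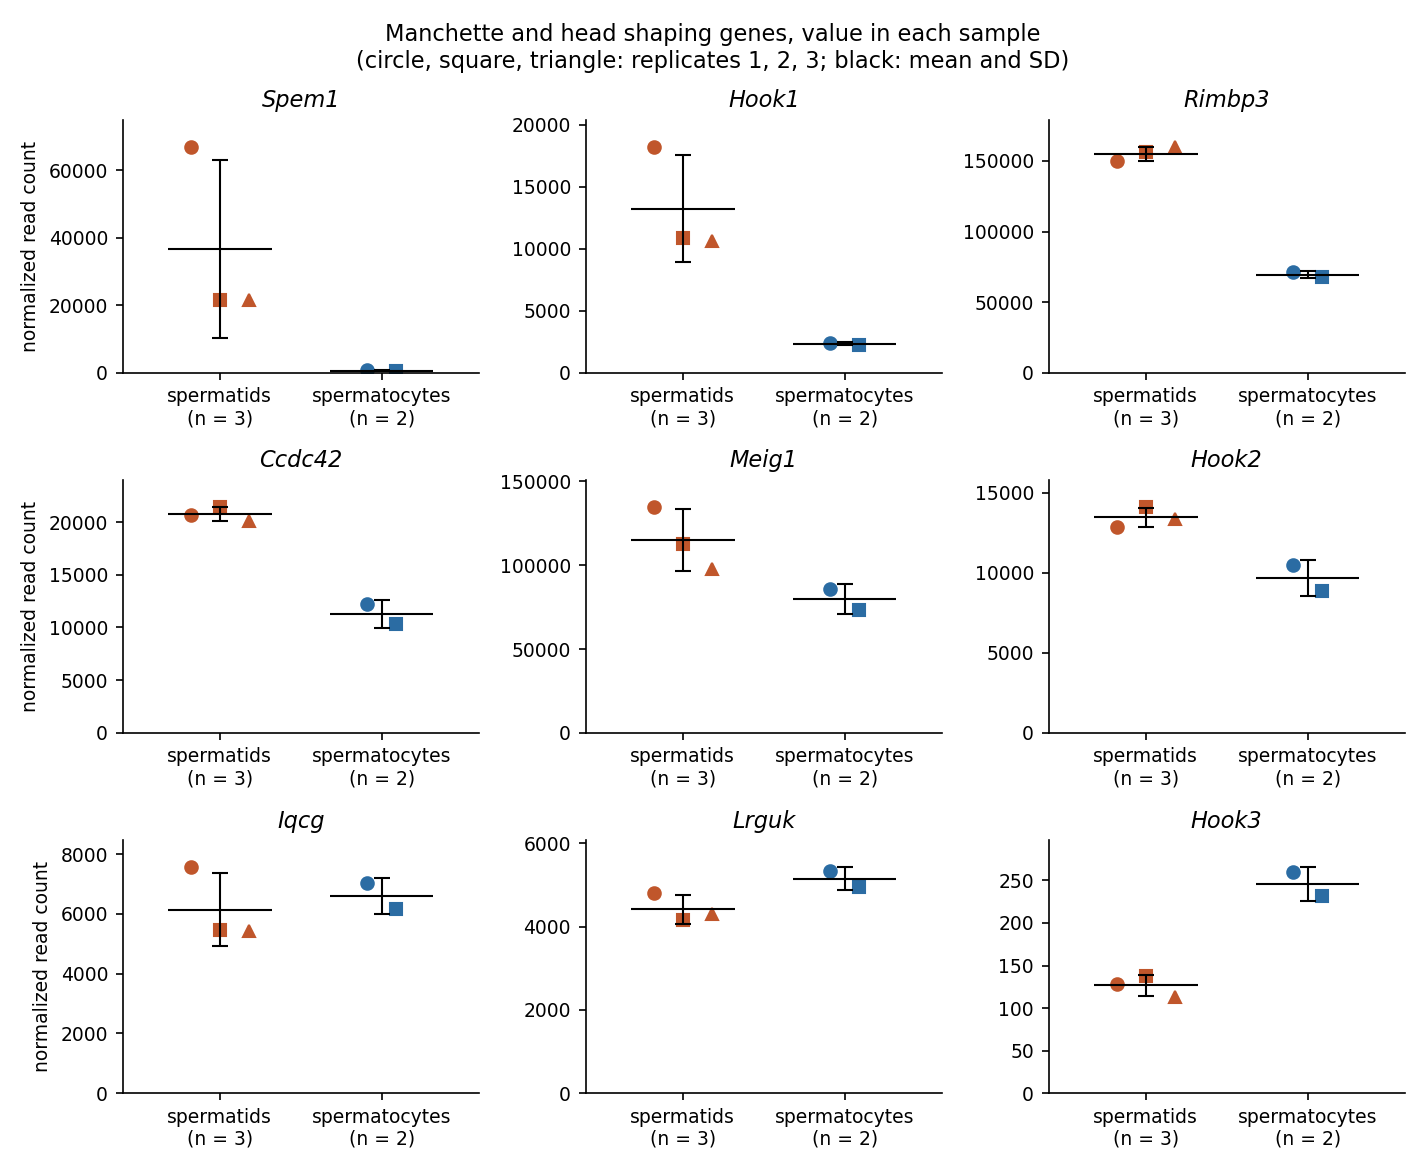
Normalized read count (vertical axes, linear from 0) of each of the 9 genes in the 3 spermatid samples and the 2 spermatocyte samples, ordered by fold change; points are samples, black lines and bars the mean and SD. The groups are apart in all panels but that of Iqcg, and spermatid replicate 1 stands above replicates 2 and 3 for Spem1 (66928 against 21445 and 21451) and Hook1 (18226 against 10838 and 10628).

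Spem1 (GSMG0006887, chr11:69820881-69822181 in mm10) encodes a protein of the spermatid cytoplasm whose loss leaves the cytoplasm in place and the sperm head bent back. Its normalized count was 66928, 21445 and 21451 in spermatid replicates 1, 2 and 3, against 724 and 501 in spermatocyte replicates 1 and 2. Every spermatid sample was far above both spermatocyte samples, and spermatid replicate 1 was far above the other spermatid samples. Spem1 averaged 36608 ± 26258 in spermatids (SD, n = 3) and 612 ± 158 in spermatocytes (SD, n = 2), and its log2 fold change was 5.70 ± 0.50 (SE, limma adjusted p = 5.8e-05). Of all tested genes, 93.6% had a lower log2 fold change. Without spermatid replicate 1 the ratio of the means was 35.0, against 59.8 with it, and the log2 fold change was 5.15. The spermatocyte level was 1.67% of the spermatid level, and the same share lay between 1.06% and 1.82% for the 10 spermatid markers, among them Prm2 at 1.82% and Tnp2 at 1.57%. These shares rest on spermatid replicate 1: without it Spem1 was at 2.86% and Prm2 at 3.73%, and the 10 markers ran from 0.997% for Catsper3 to that of Prm2. Whether spermatocytes themselves make Spem1 transcripts was not tested.

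The Hook family, coiled-coil proteins that link cytoplasmic dynein and dynactin to cargo, split in 3 ways. Hook1 (GSMG0026751, chr4:95967297-96025388), which lies at the manchette and is disrupted in the abnormal sperm head mutant mouse azh, had 18226, 10838 and 10628 in spermatids, against 2392 and 2223 in spermatocytes. It averaged 13231 ± 4328 in spermatids (SD, n = 3) and 2308 ± 119 in spermatocytes (SD, n = 2), and its log2 fold change was 2.47 ± 0.24 (SE, limma adjusted p = 8.7e-05). Without spermatid replicate 1, the highest sample, it was 2.22. The start of its row shares 359 bases with the row of 9530080O11Rik, which had 445, 522 and 477 in spermatids, against 20.5 and 23.5 in spermatocytes. Hook2 (GSMG0037552, chr8:84990595-85003364), best known from the centrosome, had 12893, 14120 and 13399 in spermatids, against 10495 and 8878 in spermatocytes. Its samples did not overlap, but the distance between the groups was small, with a log2 fold change of 0.48 ± 0.10 (SE, limma adjusted p = 0.0045), which turned to -0.17 with equal totals and was then not called.

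Hook3 (GSMG0038226, chr8:26021421-26119224), known from the Golgi and the material around the centrosome, had 129, 138 and 113 in spermatids, against 260 and 231 in spermatocytes. All spermatid samples were below both spermatocyte samples, and the log2 fold change was -0.95 ± 0.19 (SE, limma adjusted p = 0.0034). These levels rest on 83 to 139 reads per spermatid library and on 241 and 345 reads in the spermatocyte libraries, by far the lowest counts among the 9 genes. The row of Hook3 contains 3 other rows, and that of 1700047A11Rik among them is named. 1700047A11Rik had 1005, 451 and 419 in spermatids, against 9.69 and 4.02 in spermatocytes, the opposite direction to Hook3. Sertoli and Leydig cell markers were lower in spermatids as Hook3 was, and their part in this difference was not tested.

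The ratio of 2 Hook genes within a library does not depend on how libraries are scaled to each other. The log2 ratio of Hook1 to Hook2 was 0.50, -0.38 and -0.33 in spermatids, against -2.13 and -2.00 in spermatocytes. The groups were well apart, by 1.99 on the log2 scale, so that Hook1 stood 3.98-fold higher relative to Hook2 in spermatids. The ratio of Hook1 to Hook3 was 3.43 higher in spermatids on the log2 scale and that of Hook2 to Hook3 1.43 higher, in each case with all spermatid samples above all spermatocyte samples. For each of the 3 pairs, the exact permutation test over samples gave p = 0.20 (two-sided, the one-sided value doubled). That is the smallest value this test can give for 3 samples against 2, so none could pass a threshold of 0.05. Leaving out each sample in turn gave 1.71 to 2.15 for Hook1 over Hook2, 3.18 to 3.61 for Hook1 over Hook3 and 1.36 to 1.48 for Hook2 over Hook3.

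**Figure D2:**
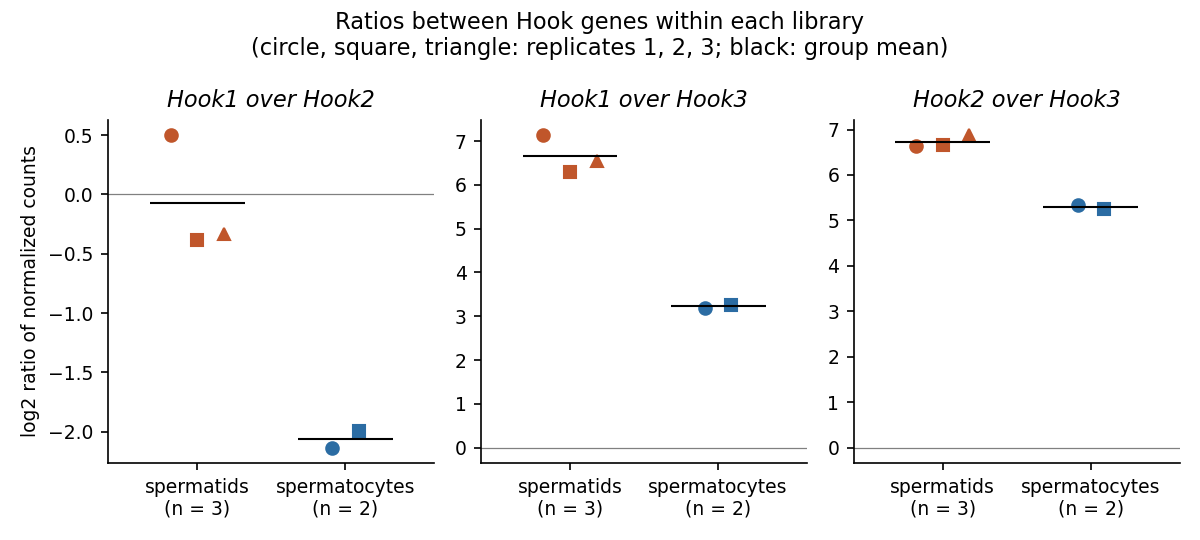
Log2 ratio of normalized counts of 2 Hook genes (vertical axes) in each spermatid and spermatocyte library; points are samples and black lines group means. All spermatid samples lie above all spermatocyte samples in the 3 panels, and the difference of the means is 1.99, 3.43 and 1.43 from left to right.

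Divided by exon length, the 3 genes could be set against each other. Hook1 made up 31.5 ± 7.60% of the summed Hook level per kilobase in spermatids (SD, n = 3), against 10.2 ± 0.61% in spermatocytes (SD, n = 2). Hook2 made up 68.4 ± 7.60% in spermatids and 89.5 ± 0.62% in spermatocytes, so it had the largest share of the 3 in both cell types and in each of the 5 libraries. Hook3 was at 0.089 ± 0.009% in spermatids and 0.317 ± 0.009% in spermatocytes. With the longest transcript as the length, the share of Hook1 was 34.9% in spermatids and 11.7% in spermatocytes.

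Rimbp3 (GSMG0014727, chr16:17208135-17213982 in mm10) encodes a manchette protein that binds Hook1 and is needed for normal head shape. It had 149745, 156066 and 159608 in spermatids, against 71266 and 67614 in spermatocytes. The samples of each group lay close together and the groups far apart, and the log2 fold change was 1.16 ± 0.09 (SE, limma adjusted p = 2.6e-05). Spermatid replicate 1 was the lowest of its group here, so Rimbp3 did not share the excess of Spem1 and Hook1 in that library. The gene has a single exon in GENCODE and its row overlaps no other row of the table.

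Lrguk (GSMG0031664, chr6:34029442-34134034 in mm10) encodes a protein with leucine-rich repeats and a guanylate kinase domain that binds Hook2 and is needed for the manchette and for tail growth. It had 4805, 4145 and 4291 in spermatids, against 5340 and 4949 in spermatocytes. All spermatid samples were below both spermatocyte samples by a small margin. The log2 fold change was -0.22 ± 0.10 (SE, limma adjusted p = 0.084), with a 95% interval from -0.47 to 0.02. It was called lower without spermatid replicate 1 (-0.29, limma adjusted p = 0.016) and with TMM factors (-0.33, limma adjusted p = 0.016). Equal totals gave -0.87 (limma adjusted p = 0.00012) and quantile normalization -0.87 (limma adjusted p = 8.3e-05).

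Meig1 (GSMG0022339, chr2:3409043-3422648 in mm10) encodes a small protein that takes part in carrying cargo at the manchette. It had 134689, 112604 and 97642 in spermatids, against 85931 and 73245 in spermatocytes. The groups did not overlap, but the spread within each was wide for so small a distance. The log2 fold change was 0.52 ± 0.15 (SE, limma adjusted p = 0.017). This call ended without spermatid replicate 2 (limma adjusted p = 0.051), without spermatocyte replicate 1 (0.061) or 2 (0.17), and without an eBayes trend (0.061). It also ended with equal totals, where the value turned to -0.12 (limma adjusted p = 0.25), and with quantile normalization, where it was 0.00 (limma adjusted p = 0.99).

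Iqcg (GSMG0015670, chr16:33014270-33056186 in mm10) encodes a calmodulin-binding protein that is needed to build the tail. It had 7561, 5453 and 5418 in spermatids, against 7030 and 6180 in spermatocytes, so spermatid replicate 1 was the highest of the 5 samples and the other spermatid samples were the lowest. The log2 fold change was -0.12 ± 0.17 (SE, limma adjusted p = 0.53), with a 95% interval from -0.52 to 0.28. Without spermatid replicate 1 it was called lower, at -0.28 (limma adjusted p = 0.027), as it was with equal totals (-0.77, limma adjusted p = 0.0006) and with quantile normalization (-0.81, limma adjusted p = 0.00058). The end of its row shares 1760 bases with that of Lrch3, which had 602, 473 and 609 in spermatids, against 2950 and 2698 in spermatocytes.

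Ccdc42 (GSMG0005378, chr11:68587037-68597954 in mm10) encodes a coiled-coil protein of the manchette and of the joint between sperm head and tail. It had 20658, 21436 and 20125 in spermatids, against 12208 and 10307 in spermatocytes. The spermatid samples were all well above the spermatocyte samples, with a log2 fold change of 0.89 ± 0.10 (SE, limma adjusted p = 0.0002). The call ended with equal totals, at 0.24 (limma adjusted p = 0.082), and with quantile normalization, at 0.13 (limma adjusted p = 0.25).

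Directions of the smaller differences depended on how the libraries were scaled. The median log2 fold change of all tested genes was 0.07 with the deposited values, -0.04 with TMM factors, -0.42 after quantile normalization and -0.57 with equal library totals. With equal totals 3 of the 9 genes were called higher in spermatids (Spem1, Hook1 and Rimbp3), beside 30.5% of all tested genes, and 3 were called lower (Hook3, Iqcg and Lrguk), beside 49.4%. Quantile normalization called these 6 genes in the same directions, where 32.9% of all tested genes were higher and 46.9% lower. Under the pair of scalings, equal totals first, Hook2 stood at -0.17 and -0.26, Meig1 at -0.12 and 0.00, and Ccdc42 at 0.24 and 0.13, none of them called. Rimbp3 stayed called at 0.51 and 0.65. Equal totals move every gene by about the same amount, so the distance from the median of all genes can change only with quantile normalization. That distance was 0.42 for Meig1 with quantile normalization and 0.46 with the deposited values, and likewise 0.16 and 0.41 for Hook2, 0.55 and 0.82 for Ccdc42, -0.40 and -0.19 for Iqcg, and -0.45 and -0.29 for Lrguk.

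**Figure D3:**
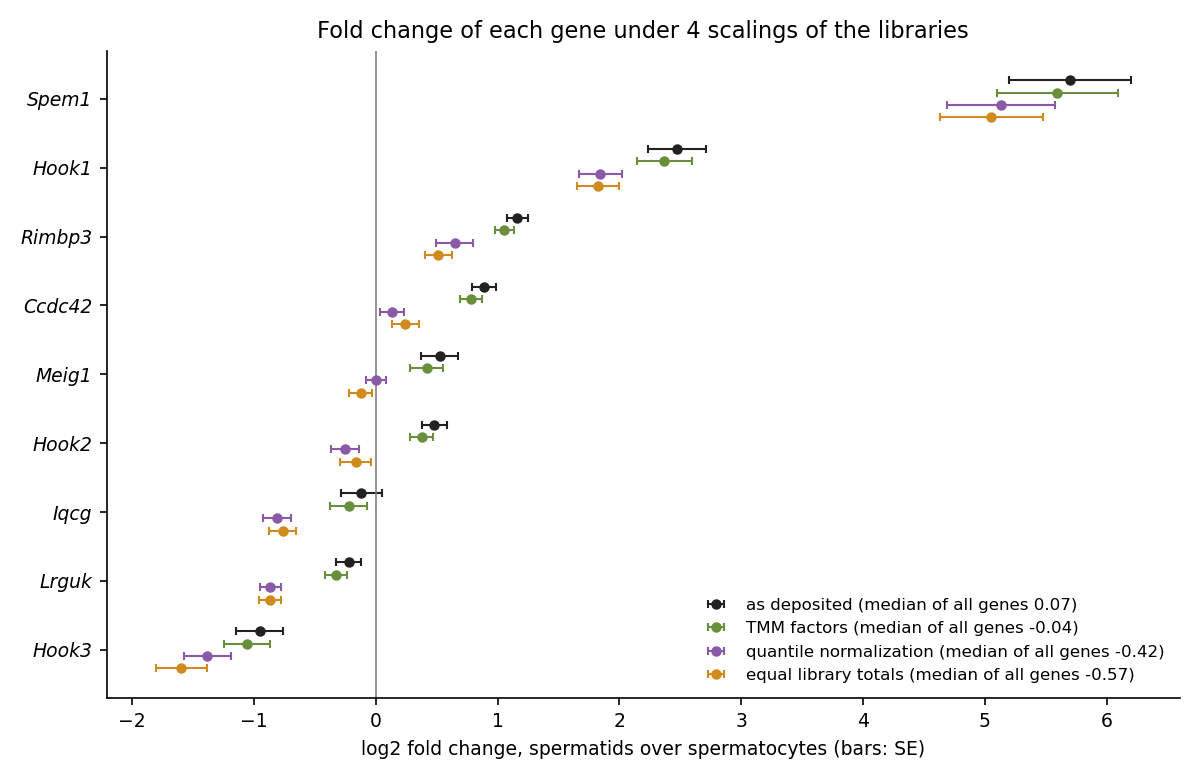
Log2 fold change of spermatids over spermatocytes (horizontal axis, bars SE) for each of the 9 genes under 4 scalings of the libraries. Spem1, Hook1, Rimbp3 and Ccdc42 stay right of 0 and Hook3, Iqcg and Lrguk left of 0 under all 4, Hook2 crosses it with equal totals and quantile normalization, and Meig1 crosses it with equal totals.

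Spermatid replicate 1 stood apart from the other spermatid samples for a subset of genes. Its log2 ratio to the mean of replicates 2 and 3 was 1.64 for Spem1, 0.76 for Hook1, 0.48 for Iqcg and 0.36 for Meig1, and it lay between -0.09 and 0.19 for Lrguk, Hook3, Ccdc42, Rimbp3 and Hook2. The median over all tested genes was 0.01. Among the 10 spermatid markers it was 2.05 for Prm2, 1.88 for Prm1, 1.53 for Tnp1 and 1.47 for Tnp2, genes of the proteins that pack DNA in late spermatids, but -0.07 for Acrv1 and -0.30 for Catsper3. Replicate 1 was above both other spermatid samples for 5 of the 9 genes, against 40.2% of all tested genes. Whether the spermatids of that sample were later in their development was not tested.

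**Figure D4:**
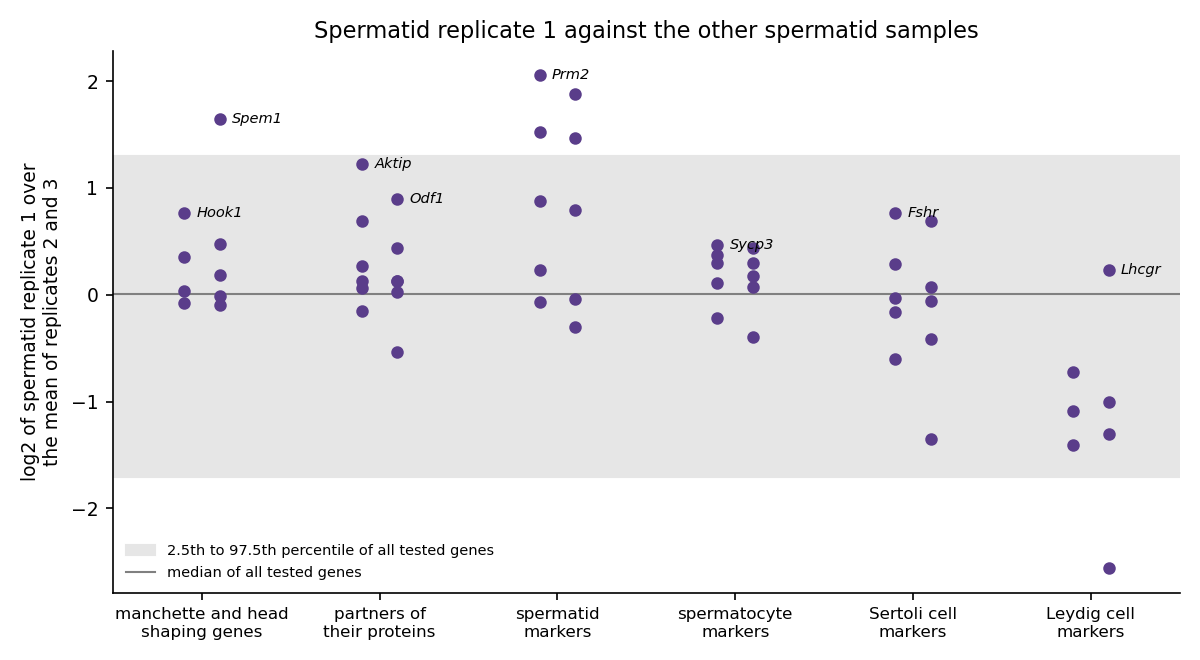
Log2 of spermatid replicate 1 over the mean of spermatid replicates 2 and 3 (vertical axis) for the 9 genes, their partners and 4 marker lists; each point is a gene and the grey band runs from -1.70 to 1.30, which holds the central 95% of all tested genes. Spem1 lies above the band with Prm2 and other spermatid markers, Hook1 lies within it at 0.76, and 6 of the 7 Leydig cell markers lie below 0.

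Levels per kilobase of exon put the 9 genes in order. In spermatids Meig1 came first, at 104336 ± 16912 normalized reads per kilobase, followed by Spem1 at 35166 ± 25223, Rimbp3 at 28836 ± 929 and Ccdc42 at 13985 ± 444 (SD, n = 3 each). Spem1 and Rimbp3 did not differ beyond the spread of Spem1, whose samples lay on both sides of Rimbp3. Below them came Hook2 at 3386 ± 155, Hook1 at 1591 ± 520, Iqcg at 997 ± 199, Lrguk at 366 ± 28.7 and Hook3 at 4.44 ± 0.44. In spermatocytes Meig1 (72221 ± 8140), Rimbp3 (12907 ± 480), Ccdc42 (7591 ± 906) and Hook2 (2435 ± 287) led the order (SD, n = 2 each). They were followed by Iqcg at 1072 ± 97.6, Spem1 at 588 ± 151, Lrguk at 426 ± 22.9, Hook1 at 277 ± 14.4 and Hook3 at 8.62 ± 0.70. Spem1 was above Rimbp3 in spermatid replicate 1 only and below it in the other 2 spermatid samples, and it stood well below Rimbp3 in spermatocytes. The samples of Lrguk lay below those of Spem1 in spermatocytes, at 410 and 443 against 481 and 695. With the longest transcript as the length, levels of Hook3 were 9.86 in spermatids and 19.1 in spermatocytes and remained the lowest. All other neighbours in either order lay apart in every sample.

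The genes whose profile over the 5 samples was most like that of a member were listed for the 3 members with the highest mean, among 15407 other named genes. The measure was the root mean square difference between log2 values centred on their own mean. For Rimbp3 these were Nup214 (0.018), Utp23 (0.026) and Mcf2l (0.031), for Meig1 Zfp143 (0.029), Aox4 (0.034) and Gps2 (0.043), and for Spem1 Lipe (0.025), Lelp1 (0.062) and Bpifa3 (0.067). With 5 samples in 2 groups, many genes share such a profile.

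Genes of proteins known to bind the 9 proteins included 8 of 12 that were higher in spermatids and 1 that was lower, beside 40.6% and 36.5% of all tested genes, and their median log2 fold change was 0.92. Under equal totals 5 were up and 3 down, beside 30.5% and 49.4% of all tested genes, with a median of 0.28. Quantile normalization also gave 5 and 3, beside 32.9% and 46.9%, with a median of 0.22. Of the partners of Meig1, Spag16, a protein of the central pair of the axoneme, was at 0.16 ± 0.12 (limma adjusted p = 0.25). Dnali1, a dynein light intermediate chain gene, rose by 0.94 ± 0.11. Meig1 itself, at 0.52 with the deposited values, lay between Spag16 and Dnali1. Spag16 turned to -0.49 with equal totals and with quantile normalization, called lower under both (limma adjusted p = 0.0019 and 0.0018). Dnali1 stayed called at 0.30 with equal totals (limma adjusted p = 0.020). Its call ended with quantile normalization, at 0.20 (limma adjusted p = 0.060).

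Of the partners of Ccdc42, the outer dense fibre gene Odf1 had 106105, 57688 and 56093 in spermatids, against 1729 and 1198 in spermatocytes, a log2 fold change of 5.60 ± 0.30 (SE, limma adjusted p = 6.2e-06). Spermatid replicate 1 was again the highest sample, and Odf1 was at 5.30 without it. Odf2 rose by 1.63 ± 0.23, with 626561 in spermatid replicate 1 against 406954 and 371235 in replicates 2 and 3, and by 1.40 without replicate 1. Of the partners of Spem1, Ubqln1, a ubiquitin shuttle gene, rose by 0.99 ± 0.08. Ranbp17, a nuclear transport gene, was at 0.01 ± 0.09 with the deposited values (limma adjusted p = 0.93). Ranbp17 was called lower with equal totals (-0.64, limma adjusted p = 0.00075) and with quantile normalization (-0.67, limma adjusted p = 0.00027). Ubqln1 stayed called higher under both, at 0.35 and 0.25.

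Among genes of proteins that bind Hook proteins, Ccdc181 rose by 0.59 ± 0.16 on the log2 scale, Fam160a2 by 0.58 ± 0.10 and Fam160a1 by 1.25 ± 0.30 (SE, limma adjusted p = 0.013, 0.0017 and 0.0069). With equal totals these 3 stood at -0.06, -0.07 and 0.61, none of them called, so the direction turned for Ccdc181 and Fam160a2. Quantile normalization gave -0.17, -0.05 and 0.83, with Fam160a1 alone called (limma adjusted p = 0.033). The call on Ccdc181 also ended without an eBayes trend (limma adjusted p = 0.051) and without spermatocyte replicate 1 (at 0.70) or 2 (at 0.47). That on Fam160a1 ended without spermatocyte replicate 2 (at 0.95). Fam160b1 fell by 0.36 on the log2 scale (limma adjusted p = 0.024). This call ended without spermatid replicate 2 (limma adjusted p = 0.052) or without spermatocyte replicate 1 or 2, where the value was -0.34 and -0.38. Other scalings kept the call and made the fall larger. It was -1.01 with equal totals (limma adjusted p = 0.00026), -0.93 with quantile normalization (0.00021) and -0.46 with TMM factors (0.0085). Aktip, a subunit of the complex of Hook proteins, had 4352, 1759 and 1956 in spermatids, against 1336 and 1302 in spermatocytes. All spermatid samples were above the spermatocyte samples, but spermatid replicate 1 was far above the rest, and the log2 fold change of 0.90 ± 0.37 (SE) missed the threshold (limma adjusted p = 0.059, edgeR adjusted p = 0.040). Without that replicate it was 0.49 and was called (limma adjusted p = 0.0043).

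Of 17 other genes of the manchette and of transport along it, 12 were higher in spermatids and 3 lower, beside 40.6% and 36.5% of all tested genes (median log2 fold change 0.53). Equal totals gave 6 and 5 instead, beside 30.5% and 49.4% of all tested genes, and the median turned to -0.12. Quantile normalization gave 6 and 7, beside 32.9% and 46.9%, and a median of -0.13. The largest differences upward were those of Spag4, a gene of a SUN-domain protein that anchors the manchette to the nuclear envelope, and of Clip1, a gene of a protein at the ends of growing microtubules. Spag4 had 26616, 28736 and 26425 in spermatids, against 382 and 335 in spermatocytes, and Clip1 had 11507, 11850 and 11441 in spermatids, against 337 and 264 in spermatocytes. Both stood at one level in all spermatid samples, with log2 fold changes of 6.25 ± 0.10 and 5.28 ± 0.12 (SE). Cntrob, the gene of the centriole protein centrobin, fell to 634, 611 and 571 in spermatids, against 4171 and 4167 in spermatocytes, a log2 fold change of -2.78 ± 0.10 (SE). Ift20, a gene of intraflagellar transport, fell to 1082, 1258 and 1139 in spermatids, against 4241 and 4005 in spermatocytes (-1.83 ± 0.11). The third to fall was Kifc1, a gene of a minus-end kinesin, at -0.64 ± 0.15, named after its value was seen.

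Of 14 other genes whose loss is known to misshape the sperm head, 8 were higher in spermatids and 3 lower, beside 40.6% and 36.5% of all tested genes (median log2 fold change 0.70). Either of the other scalings gave 5 and 5, beside 30.5% and 49.4% of all tested genes for equal totals and 32.9% and 46.9% for quantiles, and the median was 0.05 and -0.05. Spaca1, a gene of the inner acrosomal membrane, and Capza3, a gene of an actin capping protein of the germ line, averaged 25031 ± 2384 and 25477 ± 4965 in spermatids (SD, n = 3) and 317 ± 79.1 and 391 ± 128 in spermatocytes (SD, n = 2). Their log2 fold changes were 6.32 ± 0.17 and 6.04 ± 0.23 (SE). Spaca1 was also among the spermatid markers used above to check the cell types. In the other direction, Gmcl1, a gene of a nuclear envelope protein, averaged 2942 ± 51.6 in spermatids and 25391 ± 944 in spermatocytes, a log2 fold change of -3.11 ± 0.08 (SE). Gopc, a gene of a Golgi protein, averaged 349 ± 22.3 in spermatids and 2537 ± 92.5 in spermatocytes (-2.86 ± 0.12). Vps54, a gene of vesicle return to the Golgi, was the third to fall, at -1.06 ± 0.16, and was named after its value was seen.

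Of 19 tested subunit genes of cytoplasmic dynein and dynactin, the motor that Hook proteins serve, 9 were higher in spermatids and 2 lower, beside 40.6% and 36.5% of all tested genes (median log2 fold change 0.20). Either of the other scalings gave 5 and 10, beside 30.5% and 49.4% of all tested genes for equal totals and 32.9% and 46.9% for quantiles, and the median turned to -0.45 and -0.40. Dynll2, a light chain gene, averaged 28192 ± 5621 in spermatids and 2793 ± 578 in spermatocytes, a log2 fold change of 3.33 ± 0.20 (SE), and Dynlt3, another light chain gene, rose by 1.70 ± 0.19. Dync1li1, a light intermediate chain gene, averaged 627 ± 53.9 in spermatids and 1222 ± 37.4 in spermatocytes (-0.97 ± 0.12), and the intermediate chain gene Dync1i1 was at -0.44 ± 0.19 (limma adjusted p = 0.067). The other gene to fall, named after its value was seen, was the intermediate chain gene Dync1i2 at -0.32 ± 0.09.

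**Figure D5:**
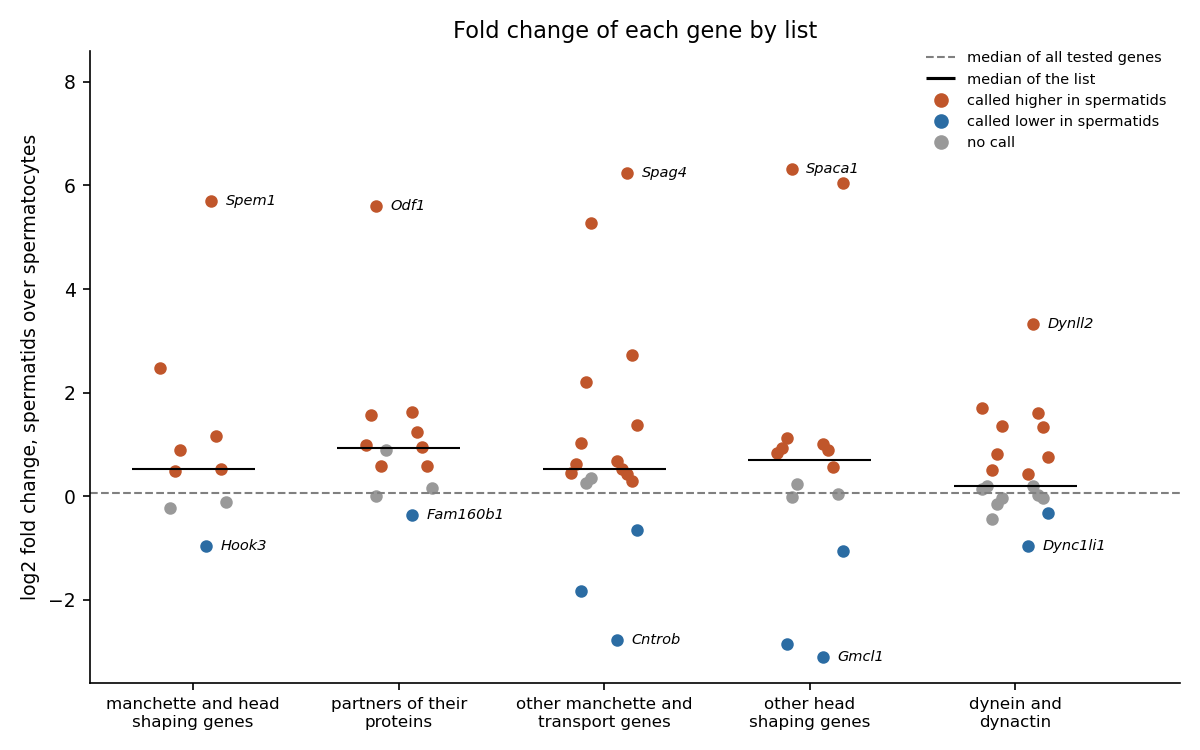
Log2 fold change of spermatids over spermatocytes (vertical axis) of each tested gene of the 5 lists; points are genes coloured by call, black lines list medians (0.52, 0.92, 0.53, 0.70 and 0.20 from left to right) and the dashed line the median of all tested genes, 0.07. With equal totals the medians of the 9 genes, of manchette transport and of dynein and dynactin turn below 0; each list holds genes on both sides of the dashed line, with Spem1, Odf1, Spag4, Spaca1 and Dynll2 at the top.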

How the data were processed

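The authors deposited 1 normalized signal per gene and sample: DESeq scaled the gene counts by library, as given in the submitters' processing notes and, for the values, per the file headers. FastQC, Picard, SAMtools, STAR 2.4.0 and mm10 are named in those notes as well, and the labels' protocols give a stranded kit for polyadenylated RNA. How reads were counted, with which strand setting and what became of reads matching several genes is not given in the sources used here. Reads of overlapping rows can thus not be told apart. Among the members, the rows of Hook1, Hook3 and Iqcg overlap others, as do rows of many genes in the other lists, among them Odf2 and Kifc1. Where a symbol matched several rows, as Odf2 did with 3, the row with the highest mean was used. Whole reads were recovered by dividing each column by its smallest value: 100% of values came out whole within 0.001. The recovered reads summed to 52784231 to 84361908 per library over all genes, and sequenced reads that were counted in no gene are not among them.

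Tests used limma 3.58.1 (R 4.3.3) with a trended eBayes on log2(value + 1), for genes with a mean of at least 10 over all 5 samples, without covariates. Fold changes are on this scale and so understate those of low genes. On the recovered reads, 21939 genes were called by edgeR 4.0.16 (quasi-likelihood) and 21759 by DESeq2 1.42.0, against 21871 by limma. The fit was tested on simulated counts with 200 changed genes and known library scaling. That setting differs from these data, where most genes were called, and does not test the choice of scaling. Replicate numbers follow accession order and pair no samples. Lengths are unions of exons in GENCODE vM21. Named genes were all members, all partners, and in each other list the 2 highest and 2 lowest fold changes, with the 3 nearest profiles to each of the 3 highest members. A gene that this rule selects is not reported here. The members and lists were chosen with earlier results of these data known. Summaries used Python 3.11.15, pandas 2.3.3 and scipy 1.17.1.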

Additional observations from a re-analysis of the deposited data

How the results depend on the processing

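The calls on Spem1, Hook1, Rimbp3 and Hook3 held under all 15 alternatives, with log2 fold changes of 5.05 to 5.97, 1.83 to 2.61, 0.51 to 1.20 and -1.60 to -0.87. With equal library totals 3 members were called higher and 3 lower. The counts were then 5 higher and 3 lower for partner genes, 6 and 5 for manchette transport, 5 and 5 for head shaping, and 5 and 10 for dynein and dynactin. Quantile normalization gave 3 and 3, 5 and 3, 6 and 7, 5 and 5, and 5 and 10. Hook2 turned to -0.17 with equal totals and -0.26 after quantile normalization, and Meig1 to -0.12 with equal totals. TMM factors called 2 members and 4 dynein and dynactin genes lower, beside 38.7% of all tested genes, and eBayes without a trend called 0 partner genes (Fam160b1, limma adjusted p = 0.083; edgeR called it) and 1 dynein and dynactin gene lower, beside 35.1% of all tested genes. Over all genes 17263 of 48199 tested were called lower with no filter on low values (35.8%). With a mean of at least 100 it was 6029 of 17295 (34.9%), against 10359 of 28370 in the main fit (36.5%). The share called higher moved more, and was 27.0%, 46.0% and 40.6% in the same order. Leaving out each replicate gave 1 to 3 members, 0 to 1 partner genes and 1 to 4 dynein and dynactin genes called lower, beside 29.2% to 37.5% of all tested genes, with 3 members and 4 dynein and dynactin genes without spermatid replicate 1 (37.5% of all tested genes), and 1 dynein and dynactin gene without spermatocyte replicate 1 (29.6%). A lone spermatocyte sample is then assumed to vary like the spermatids. The cause of these shifts was not tested. Without a count of cells or added standards, no scaling can be preferred from these data. No paired analysis was possible because the labels give no replicate numbers that the groups share.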
